A study of Mus musculus with 4 samples.

Results

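The genes described here are 42 mouse genes of mitosis and the mitotic spindle, chosen as a named list of cyclins, mitotic kinases, checkpoint proteins, kinesins and cytokinesis factors. Of these, 41 had a named probe set, and each of the 41 reached a signal of at least 300 on some array. The expression of Ccnb1, which encodes cyclin B1, was not analysed here, while its promoter was included in the promoter search. The series as a whole had 18193 named genes, and each gene was read from its brightest probe set over the 4 arrays. In Th1 cells, 40 of the 41 genes had a higher signal in the CD30high than in the CD30low population, or 33 of the 41 if each array was centred on its median. Of all genes with 300 on the brighter array, 46.1% were higher without that centring. In Th17 cells, 41 of the 41 had a lower signal in the CD30high population, against 48.8% of all such genes. The differences were small, with a median of 1.27-fold higher in Th1 and 1.30-fold lower in Th17 cells.

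CD30 is a receptor of the TNF receptor superfamily, and the study asked whether effector T helper cells that carry much or little of it differ in how readily they become memory cells. Splenic CD4+ T cells of the mouse were cultured for 6 days and then sorted into CD30low and CD30high cells, which gave 4 groups with 1 array each. The Th1 groups had received 30 U/ml of IL-2 culture supernatant, 100 U/ml of IL-12 and 1 µg/ml of antibody against IL-4. The Th17 groups had received 10 ng/ml each of IL-6, IL-1beta and IL-23, with 10 µg/ml each of antibodies against IL-4 and IFNg. The labels give no strain, age or replicate number. By the methods, all cultures held a peptide of ovalbumin and irradiated splenocytes depleted of T cells, and the T cells carried a transgenic receptor for that peptide. For the starting cells, the labels give CD44low CD62Llow in the CD30low samples and CD44low CD62Lhi in the CD30high samples, whereas the methods describe CD44low CD62Lhigh naive cells throughout. No group was repeated, so ratios of 2 arrays are given without a replicate error or a p-value.

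Mitotic genes are transcribed late in the cell cycle, and their RNA is abundant in cells in G2 and mitosis and scarce in resting cells. Naive T cells are quiescent, and antigen drives them into a run of fast divisions before they slow down as effector cells. In resting cells the DREAM complex holds these genes silent, and in G2 the MuvB core of that complex joins B-MYB and FOXM1 to activate them. The MuvB core binds a short element called the cell cycle genes homology region (CHR), and the factor NF-Y binds CCAAT boxes a short way upstream of it. In RNA from a whole population, more cells in mitosis and more RNA per dividing cell cannot be told apart.

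RefSeq promoters on the build GRCm38.p6, from 250 bases before to 50 bases after the start, were at hand for 36 of the 42 genes (38 promoters). A CHR, searched on either strand as TTTGAA or TTTAAA, was found in 31 of the 38 promoters (81.6%). It was found in 27.6% of all 32851 promoters and in 19.5% of the 8675 promoters of genes that reached 300 on some array. A CCAAT box on either strand was found in 78.9% of the members' promoters and in 37.4% of all promoters. Both were found together in 71.1% of the members' promoters, against 10.7% of all promoters and 16.2% of the 37 promoters of genes of G1/S and DNA replication. An E2F site, searched on either strand as TTTCGCGC or TTTGGCGC, was found in 2.63% of the members' promoters (1 of 38) and 27.0% of the G1/S promoters. It was found in 0.813% of all promoters and in 1.66% of those of genes that reached 300 on some array. The members were thus not below these shares, and the G1/S promoters lay far above them. No motif contains another, though neighbouring matches can share letters, and a match describes the letters and not a bound site.

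In 10 of the members' 38 promoters a CCAAT box lay at most 60 bases upstream of a CHR, both before the start. Cdc25c and Kif20a were among the members with no promoter at hand. Pairs were sought in the members' promoters only, so this count has no share over all promoters beside it. For the pair nearest the start, 12 to 38 bases lay between the CCAAT box and the CHR. The sequences below show that arrangement in 6 genes that stand for different steps of mitosis: the proliferation antigen Ki-67 (Mki67), topoisomerase II alpha (Top2a), the kinase that drives mitotic entry (Cdk1), an activator of the anaphase-promoting complex (Cdc20), a spindle motor (Kif11) and a microtubule bundler (Prc1). Capitals mark the CCAAT box (ATTGG on the opposite strand) and the CHR (TTCAAA for TTTGAA on the opposite strand) of the pair nearest the start, and other copies are left in lower case. Each is read 5′ to 3′ along its gene. Mki67 lies at chr7:135716380-135716540 on the minus strand, Top2a at chr11:99024190-99024309 on the minus strand, Cdk1 at chr10:69352913-69353032 on the minus strand, Cdc20 at chr4:118437344-118437463 on the minus strand, Kif11 at chr19:37376262-37376381 on the plus strand and Prc1 at chr7:80294356-80294475 on the plus strand. The last base shown is the base before the start. Cdc25b, at chr2:131186828-131186947 on the plus strand, is shown as a promoter with 1 CCAAT box and no CHR of the letters searched, so it has no capitals. The other members with no CHR in the promoter were Bub1, Mad2l1, Nek2, Nuf2, Nusap1 and Pttg1, and these 6, unlike Cdc25b, had ratios above 1 in Th1 and below 1 in Th17 cells like most members.
Mki67: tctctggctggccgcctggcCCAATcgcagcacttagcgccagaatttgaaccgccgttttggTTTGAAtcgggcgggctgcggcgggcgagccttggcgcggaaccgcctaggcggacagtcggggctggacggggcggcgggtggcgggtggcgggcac
Top2a: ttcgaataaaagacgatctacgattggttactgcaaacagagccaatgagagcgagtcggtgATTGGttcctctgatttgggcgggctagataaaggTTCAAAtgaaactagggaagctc
Cdk1: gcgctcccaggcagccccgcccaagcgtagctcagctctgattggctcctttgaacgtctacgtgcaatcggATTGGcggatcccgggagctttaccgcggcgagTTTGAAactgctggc
Cdc20: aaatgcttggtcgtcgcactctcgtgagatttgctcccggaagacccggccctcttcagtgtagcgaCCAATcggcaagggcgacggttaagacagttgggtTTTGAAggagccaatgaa
Kif11: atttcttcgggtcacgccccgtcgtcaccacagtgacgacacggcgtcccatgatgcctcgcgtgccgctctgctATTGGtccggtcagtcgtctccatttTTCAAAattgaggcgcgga
Prc1: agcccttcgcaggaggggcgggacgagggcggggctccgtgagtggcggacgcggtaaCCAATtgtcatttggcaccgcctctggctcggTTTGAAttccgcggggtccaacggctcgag
Cdc25b: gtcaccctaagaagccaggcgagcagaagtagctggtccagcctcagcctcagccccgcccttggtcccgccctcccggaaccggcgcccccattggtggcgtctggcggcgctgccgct

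**Figure D1:**
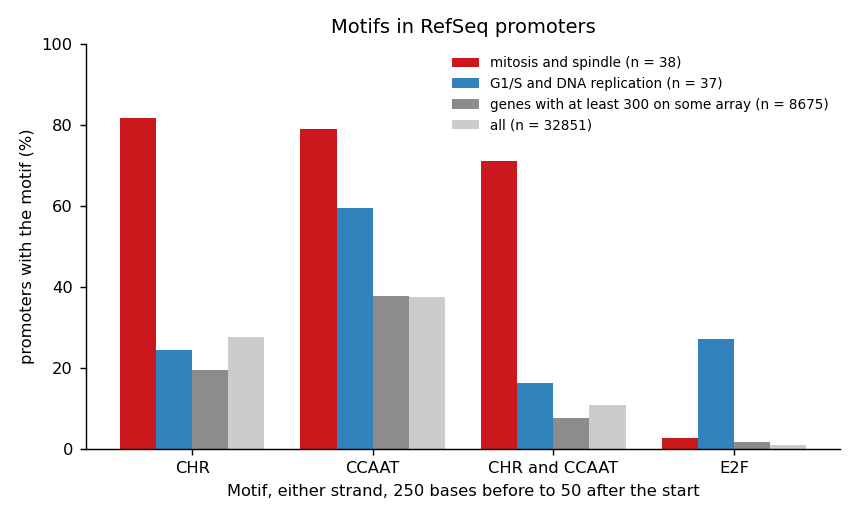
Share of RefSeq promoters (percent, 250 bases before to 50 bases after the start) with a CHR, a CCAAT box, both, or an E2F site on either strand. Red bars are the 38 promoters of mitosis and spindle genes, blue bars the 37 of G1/S genes, dark grey bars the 8675 of genes with at least 300 on some array and light grey bars all 32851. CHR and CCAAT together were in 71.1% of the mitosis and spindle promoters and 10.7% of all.

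The 4 arrays had nearly equal trimmed means, from 496.6 to 497.0, and 7394 to 7580 genes at 300 or more. The T cell genes Cd3e, Cd3g, Cd3d, Cd4 and Cd2 were present on every array, with a summed signal of 65469 and 52481 on the CD30low and CD30high Th1 arrays and 49515 and 40259 on the CD30low and CD30high Th17 arrays. Tbx21, the Th1 regulator, was between 2190 and 2352 in Th1 and between 243 and 281 in Th17 cells, and Il17a reached 1398 and 14443 on the CD30low and CD30high Th17 arrays. Tnfrsf8, which encodes CD30, was dim (13.3 and 51.1 in Th1, 34.9 and 132 in Th17 cells), with only the CD30high Th17 array above 100, so its signals do not check the sort in Th1 cells. The Th1 arrays held RNA of the Y-linked gene Eif2s3y (1784 and 1640) and of the X-inactivation transcript Xist (14620 and 16222), while the Th17 arrays held Xist (22350 and 22613) with Eif2s3y at 1.41 and 9.39. The lineages and the mice they came from thus cannot be told apart. The 4 neutrophil genes S100a8, S100a9, Ngp and Camp summed to 13.9 and 83.0 on the Th1 arrays, and to 8490 and 2093 on the CD30low and CD30high Th17 arrays. Of 5 fibroblast genes, Lum and Dcn went the other way, from 768 and 127 in CD30low Th17 to 6697 and 967 in CD30high Th17 cells, while Col1a1, Col3a1 and Pdgfra were below 100 on every array.

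Technical precision was taken from genes with several probe sets. Over 2928 such genes, the log2 ratio of a probe set varied around its gene with an SD of 0.23 for CD30high over CD30low in Th1 and 0.20 in Th17 cells. The SD was 0.29 for Th17 over Th1 in CD30low cells, 0.31 in CD30high cells and 0.29 for the difference between the CD30 ratios of the lineages. This SD covers the probe sets and not the spread between cultures. Throughout, a gene counted as called when its signals differed at least 2-fold with at least 300 on the brighter array, and signals below 100 were set to 100.

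In Th1 cells, the CD30high population had the higher signal for 40 of the 41 mitotic genes, against 46.1% of the 7813 genes with 300 on the brighter array. The median log2 ratio of the members was 0.34, and that of all 7813 genes was -0.03. Cdc25b was the exception at -0.29, and the other 40 ranged from 0.13 for Cenpa, the centromeric histone H3 variant, to 0.72 for Ttk, a checkpoint kinase. No member reached 2-fold in either direction, as did 1.28% of all genes. At 1.5-fold, 6 members were higher (Cdc25c, Plk1, Ttk, Kif23, Kif2c and Ect2), which is 14.6% against 4.04% of all genes. Past 2 technical SDs, 9 members were higher (22.0%, against 7.33% of all genes) and none was lower (7.22% of all genes). With each array centred on its median, 33 members were higher, and Birc5, Ccnb2, Cenpa, Incenp, Nek2, Pttg1 and Spag5, all with small ratios, changed to lower, while the median of all genes moved to -0.27 and that of the members to 0.11.

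In Th17 cells the CD30high population had the lower signal for 41 of 41 mitotic genes, against 48.8% of 7786 genes. The median log2 ratio was -0.37, and that of all genes was 0.01. The ratios ranged from -1.38 for Cdc25b to -0.02 for Aurka, the centrosomal Aurora kinase, which was level between the 2 arrays. Cdc25b was the only member past 2-fold, where 3.66% of all genes were lower and 3.94% higher. At 1.5-fold, 6 members were lower (Ccna2, Cdc25b, Cdc25c, Nuf2, Kif11 and Racgap1), which is 14.6% against 9.12% of all genes. Past 2 technical SDs, 17 members were lower (41.5%, against 15.5% of all genes) and none was higher (15.9% of all genes). On the same pair of Th17 arrays the neutrophil genes were also lower in the CD30high population, and their part in the mitotic ratios was not tested. Markers of dividing myeloid precursors (Mpo, Elane, Prtn3, Ctsg and Ms4a3) were each below 100 on every array, with sums between 152 and 295, and the sum was 164 on the CD30low and 249 on the CD30high Th17 array.

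**Figure D2:**
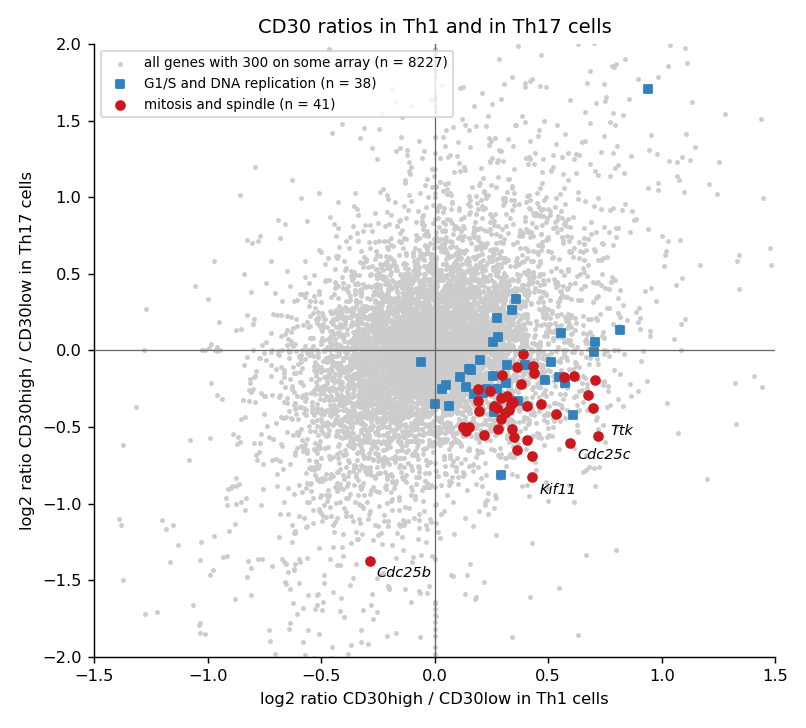
Log2 ratio of CD30high over CD30low in Th1 cells (x axis) and in Th17 cells (y axis), 1 point per gene. Red circles are the 41 mitosis and spindle genes, blue squares the 38 measured genes of G1/S and DNA replication and grey points all 8227 genes with 300 on some array, of which 147 lie outside the plotted range. Of the red circles, 40 lie in the lower right quadrant, and Cdc25b lies in the lower left. With the arrays centred on their medians 33 have a Th1 ratio above 1.

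The combination of a higher signal in CD30high Th1 and a lower signal in CD30high Th17 cells was found for 40 of 41 members (97.6%), and for 18.3% of the 8227 genes with 300 on some array. With each array centred on its median it was found for 33 members and for 7.9% of all genes. The 2 CD30 comparisons used different arrays. Across the 41 members, the size of the ratio in Th1 and in Th17 cells was loosely related (Pearson r 0.44, Spearman rho 0.19), and r was 0.12 over the 40 members without Cdc25b. These values describe genes of the same 4 libraries, which are not independent replicates.

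The members are taken next by role, with Th1 signals before Th17 signals, and within each lineage the CD30low before the CD30high array. Where 2 log2 ratios of CD30high over CD30low follow, the first is that in Th1 and the second that in Th17 cells. Mki67, the antigen that coats mitotic chromosomes and is widely used to count cycling cells, had signals of 10957, 13238, 14232 and 10973. The CD30low Th17 array was thus the highest and the CD30low Th1 array the lowest, with the CD30high Th17 array level with it. The log2 ratios were 0.27 in Th1 and -0.38 in Th17 cells. Top2a, which untangles sister chromatids, had signals of 11394, 14502, 22758 and 15390.5. Its CD30low Th17 signal stood well above the other 3, and its log2 ratios were 0.35 and -0.56. A second, dimmer Top2a probe set gave 569, 646, 1839 and 790.2, with the same order of arrays.

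Among the cyclins, CDK1 and its activating CDC25 phosphatases, the median log2 ratio of the 5 measured members was 0.43 in Th1 and -0.61 in Th17 cells. Ccna2, cyclin A, had signals of 3925, 5289.5, 7074 and 4377, with log2 ratios of 0.43 and -0.69. It was highest in CD30low Th17 and lowest in CD30low Th1 cells. Cdc25c, a CDK1 phosphatase of mitotic entry, had signals of 247, 374, 451 and 296, with log2 ratios of 0.60 and -0.61. It was the dimmest member, and the 1 member not at 300 or more on all arrays. Cdc25b, the phosphatase that acts earlier in G2, had signals of 2581, 2115, 1966 and 758. Its order was unlike that of any other member, highest in CD30low Th1 and lowest in CD30high Th17 cells, with log2 ratios of -0.29 and -1.38. Cdk1, the mitotic kinase itself, had ratios of 0.43 and -0.10, and Ccnb2, cyclin B2, of 0.22 and -0.55.

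**Figure D3:**
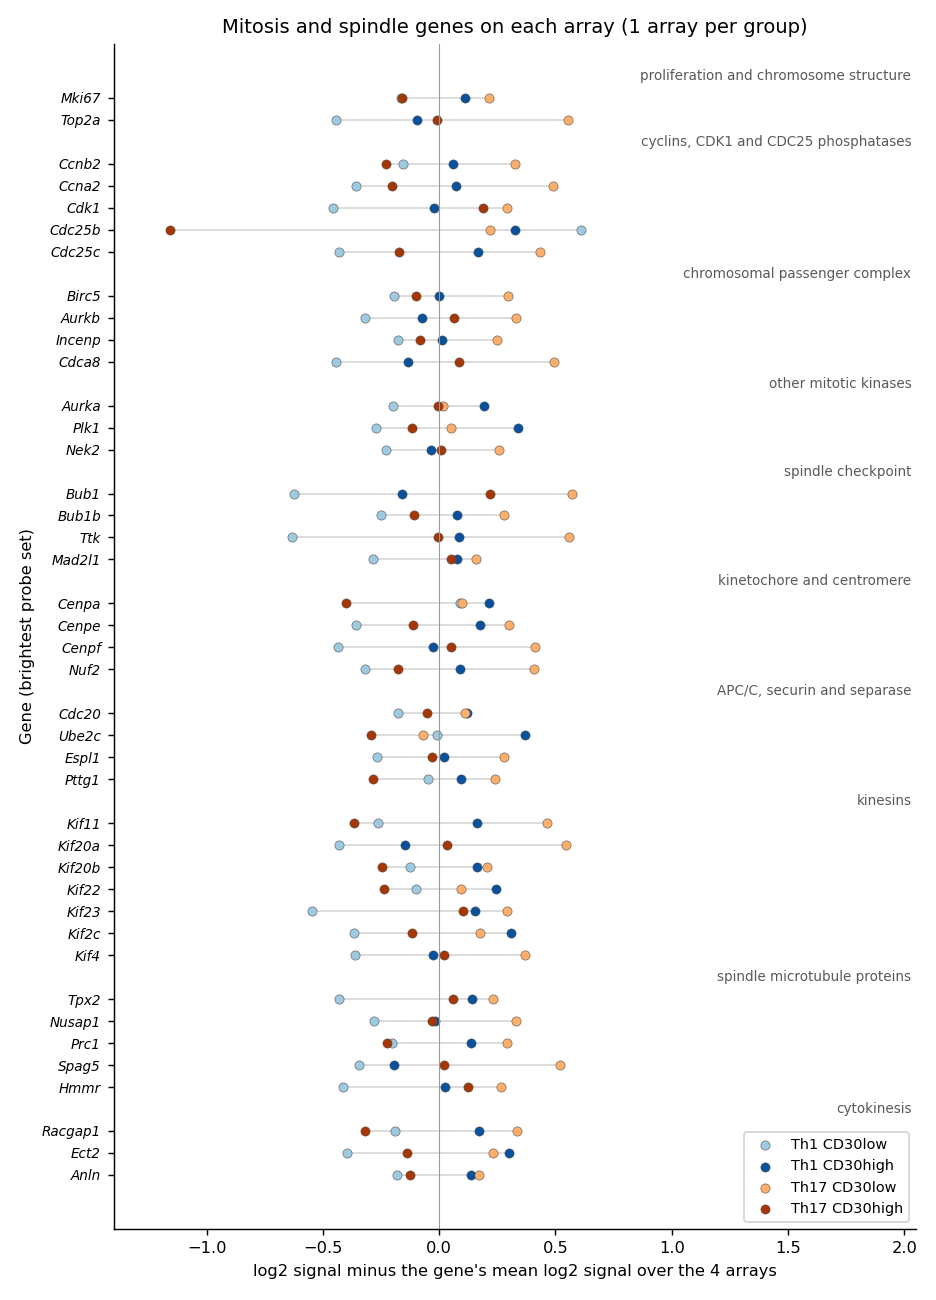
Log2 signal of each mitosis and spindle gene on the 4 arrays, minus the mean log2 signal of that gene over the 4 arrays (x axis), with genes grouped by role (y axis). Light blue is CD30low Th1, dark blue CD30high Th1, light orange CD30low Th17 and dark red-brown CD30high Th17, with 1 array each and no error bars. The CD30low Th17 array is the highest for 32 of the 41 genes and the CD30low Th1 array the lowest for 31.

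The chromosomal passenger complex corrects faulty attachments of chromosomes to the spindle and later acts at the cleavage furrow. Its 4 members had a median log2 ratio of 0.22 in Th1 and -0.36 in Th17 cells. Birc5, survivin, had signals of 6664, 7617, 9350.3 and 7105, with log2 ratios of 0.19 and -0.40. Cdca8, borealin, had signals of 3409, 4222, 6521 and 4919.6, with ratios of 0.31 and -0.41. The other subunits, the kinase Aurkb and its scaffold Incenp, had ratios of 0.24 and 0.19 in Th1 and of -0.27 and -0.33 in Th17 cells. All 4 were highest in CD30low Th17 and lowest in CD30low Th1 cells.

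Of the other mitotic kinases, Plk1, which acts from mitotic entry to cytokinesis, had signals of 993, 1519, 1242 and 1105. It was highest in CD30high Th1 cells, with ratios of 0.61 and -0.17. Nek2, which separates the centrosomes, had signals of 1844, 2107, 2579 and 2168, with ratios of 0.19 and -0.25, both under 2 technical SDs. A second, dimmer Nek2 probe set gave 379, 468, 470 and 314, with ratios of 0.30 and -0.58, the latter past 2 technical SDs. Aurka was also highest in CD30high Th1 cells, with ratios of 0.39 and -0.02. Of the role groups with at least 3 members, these 3 kinases had the median nearest to 0 in Th17 cells, at -0.17.

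The spindle checkpoint holds anaphase back until every chromosome is attached. Ttk, also known as MPS1, had signals of 760.2, 1250.1, 1735 and 1176, with log2 ratios of 0.72 and -0.56. It had the largest CD30 ratio of all members in Th1 cells, but a second probe set at 240.2, 211, 227 and 177 gave -0.19 there. Bub1, a checkpoint kinase at kinetochores, had signals of 2081, 2874, 4769 and 3735, with ratios of 0.47 and -0.35. Both Th17 arrays were brighter for Bub1 than both Th1 arrays. Bub1b had ratios of 0.33 and -0.39, and Mad2l1 of 0.36 and -0.11, in Th1 and Th17 cells.

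At the kinetochore, Cenpe, the motor that carries chromosomes to the spindle equator, had signals of 1698, 2458, 2681 and 2012, with ratios of 0.53 and -0.41. Nuf2, a subunit of the NDC80 complex that grips microtubules, had signals of 1753, 2324, 2903 and 1934, with ratios of 0.41 and -0.59. Both were highest in CD30low Th17 and lowest in CD30low Th1 cells. Cenpf had ratios of 0.41 and -0.36, and Cenpa of 0.13 and -0.50. Cenpa was lowest in CD30high Th17 cells, at 4364, and lay between 6140.5 and 6697 on the other 3 arrays. A second, dimmer Cenpa probe set gave 651, 623, 948 and 535, highest in CD30low Th17 cells, with ratios of -0.06 and -0.83.

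For the genes that trigger anaphase, Pttg1, the securin that restrains separase, had signals of 12241, 13476, 14940 and 10373, with ratios of 0.14 and -0.53. Ube2c, the ubiquitin-conjugating enzyme of the anaphase-promoting complex, had signals of 10310.4, 13415, 9893 and 8481, with ratios of 0.38 and -0.22. Both were lowest in CD30high Th17 cells, but by these probe sets Ube2c was highest in CD30high Th1 and Pttg1 in CD30low Th17 cells. The other Pttg1 probe sets, both dimmer, were highest in CD30high Th1 cells, like Ube2c, and lowest in CD30high Th17 cells. The brighter of them gave 3036, 3975, 3794 and 2292, with ratios of 0.39 and -0.73. The dimmer gave 353, 634, 440 and 280, with ratios of 0.84 and -0.65. Cdc20 had ratios of 0.30 and -0.16, and Espl1, separase, of 0.29 and -0.31.

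All 7 kinesins had a ratio above 1 in Th1 and below 1 in Th17 cells, with medians of 0.34 and -0.35. Kif11, which pushes the spindle poles apart, had signals of 1573, 2118, 2607 and 1467, with ratios of 0.43 and -0.83. Its lowest signal was in CD30high Th17 cells, and its Th17 ratio was the most negative after that of Cdc25b. Kif2c, which takes apart microtubule ends, had signals of 1402, 2239, 2037 and 1664, with ratios of 0.67 and -0.29. The other 5 lay between 0.28 (Kif20a) and 0.70 (Kif23) in Th1 and between -0.51 (Kif20a) and -0.19 (Kif23) in Th17 cells.

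Of the spindle microtubule proteins, Prc1, which bundles the midzone, had signals of 1596, 2018, 2249 and 1574, with ratios of 0.34 and -0.51. Tpx2, which activates Aurora A on the spindle, had signals of 1323, 1966, 2093 and 1855, with ratios of 0.57 and -0.17. The larger ratio was thus in Th17 cells for Prc1 and in Th1 cells for Tpx2. Nusap1, Spag5 and Hmmr had ratios of 0.26, 0.15 and 0.44 in Th1, and of -0.36, -0.50 and -0.14 in Th17 cells. In cytokinesis, Racgap1, the GTPase-activating subunit of centralspindlin, had signals of 1541, 1979, 2211 and 1408, with ratios of 0.36 and -0.65. Ect2, the exchange factor that centralspindlin recruits to switch on RhoA, had signals of 1356, 2197, 2095 and 1618, with ratios of 0.70 and -0.37. Racgap1 was highest in CD30low Th17 and Ect2 in CD30high Th1 cells. Anln, which links RhoA to the contractile ring, had ratios of 0.32 and -0.30.

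Between the lineages, 39 of 41 members were higher in Th17 than in Th1 cells among CD30low cells, against 50.1% of 7857 genes. The median log2 ratio was 0.55, and that of all genes was 0.00. The exceptions were Cdc25b at -0.39 and Ube2c at -0.06, and Cenpa, at 0.01, was level, though its second probe set gave 0.54. Bub1 (1.20) and Ttk (1.19) were past 2-fold, where 3.53% of all genes were higher and 5.83% lower, and Top2a was just under it at 0.998. With each array centred on its median, which moved the all-gene median to 0.25, 10 members were past 2-fold. The second Ttk probe set gave -0.081, and the second Bub1 probe set, at signals between 101 and 209, gave 0.76. At 1.5-fold, 20 members were higher (48.8%, against 11.7% of all genes), and these came from all but the other mitotic kinases and the anaphase trigger genes among the role groups. The neutrophil genes were also higher on the CD30low Th17 array, and their part in these ratios was not tested.

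Among CD30high cells, 30 of 41 members were lower in Th17 than in Th1 cells and 11 were higher, against 47.0% of 7979 genes lower, but when each array was centred on its median 32 members were higher. The median log2 ratio was -0.19, against 0.04 for all genes, and with that centring it was 0.23, against 0.47 for all genes. The members thus lay below the all-gene median by 0.22 and, with that centring, by 0.24. Cdc25b at -1.48 was the only member past 2-fold, where 6.86% of all genes were lower and 4.98% higher. At 1.5-fold, 3 members were lower (Cdc25b, Ube2c at -0.66 and Cenpa at -0.62), which is 7.32% against 14.9% of all genes. The highest ratio was that of Bub1, at 0.38, and no member was higher by 1.5-fold, as were 13.6% of all genes.

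**Figure D4:**
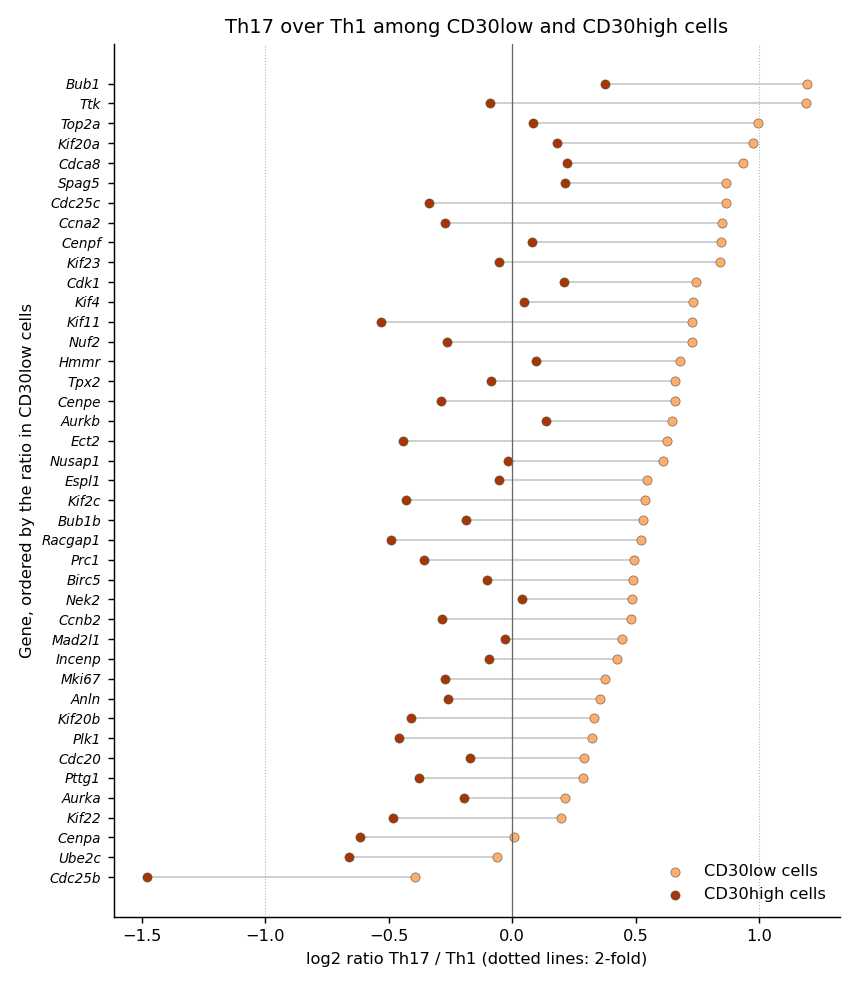
Log2 ratio of Th17 over Th1 (x axis) for each mitosis and spindle gene (y axis), among CD30low cells in light orange and among CD30high cells in dark red-brown, with 1 array per group. Dotted lines mark 2-fold. The CD30low ratio lies to the right of the CD30high ratio for all 41 genes, and with the arrays centred on their medians 32 of the CD30high ratios lie above 0.

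The CD30 log2 ratio in Th17 minus that in Th1 cells was below 0 for 41 of 41 members, with a median of -0.72 against 0.02 over 8227 genes. It ran from -1.28 for Ttk to -0.41 for Aurka, and Kif11 (-1.26), Cdc25c (-1.20), Ccna2 (-1.12) and Cdc25b (-1.09) were next to Ttk. Past 2 technical SDs of this difference, 33 members were lower (80.5%, against 10.5% of all genes). The difference was also below 0 for 37 of the 38 measured genes of G1/S and DNA replication, with a median of -0.43. The same value is the lineage ratio among CD30high cells minus that among CD30low cells. With 4 arrays it leaves no residual degrees of freedom and was not tested. By the brightest probe sets, only Cdc25c, Cenpe and Ttk were past 2 technical SDs in opposite directions in the 2 lineages. By their second probe sets none of these genes was. A change from higher in Th17 among CD30low to lower in Th17 among CD30high cells was found for 28 members (68.3%, against 12.2% of all genes), but for 8 members, against 5.56% of all genes, with each array centred on its median.

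Across the 4 arrays, the highest signal was on the CD30low Th17 array for 32 members, on the CD30high Th1 array for 8 and on the CD30low Th1 array for 1, Cdc25b. The lowest was on the CD30low Th1 array for 31 members and on the CD30high Th17 array for 10. Over all 8227 genes the CD30low Th17 array was the highest for 22.4% and the CD30low Th1 array the lowest for 27.1%. From the lowest to the highest array, members spanned 1.23-fold (Cdc20) to 3.40-fold (Cdc25b), with a median of 1.58-fold.

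Further probe sets of the same genes were read where their mean signal reached 100, which gave 42 probe sets of 27 members. In Th1 cells 36 of the 42 were higher in the CD30high population, and in Th17 cells 38 of the 42 were lower. The difference between the CD30 ratios was below 0 for 41 of the 42, with 1 of the Cdc20 probe sets as the exception. Between the lineages, 38 of the 42 were higher in Th17 among CD30low cells and 32 were lower among CD30high cells. Probe sets of 1 gene read the same RNA, so these counts bear on the probes and not on the cultures.

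Genes of mitosis outside the list mostly had CD30 ratios of the same direction in the signals as deposited. The lists outside the members, here and in the next paragraph, were not read with each array centred on its median. That centring moved the all-gene median for CD30 in Th1 cells from -0.03 to -0.27. Of 29 measured kinetochore and checkpoint genes, 27 were higher in CD30high Th1 cells and 25 were lower in CD30high Th17 cells, with median log2 ratios of 0.29 and -0.23. Of 27 measured spindle and cytokinesis genes the counts were 24 and 23, with medians of 0.30 and -0.38. Among the 12 genes of condensins and sister chromatid cohesion, 11 were higher and 11 were lower, with medians of 0.30 and -0.35. Smc4, a core condensin subunit, had signals of 5697, 8085, 12367 and 8438 and so followed the order of Top2a. Ndc80, the partner of Nuf2, had signals of 547, 697, 1689 and 1042. Of 15 regulators of mitotic entry and exit, 12 were higher in CD30high Th1 and 11 lower in CD30high Th17 cells, with medians of 0.18 and -0.17. The lineage medians among CD30low cells were between 0.41 and 0.73 for these lists. Among CD30high cells, where 30 of 41 members were lower in Th17 cells without centring, these lists differed: 20 of the 29 kinetochore and checkpoint genes were higher (median 0.14), as were 10 of the 15 entry and exit regulators (0.15) and 6 of the 12 condensin and cohesion genes (0.03), and 10 of the 27 spindle and cytokinesis genes were (-0.11).

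The 20 genes that control transcription of mitotic genes were less uniform, with 12 higher in CD30high Th1 and 10 lower in CD30high Th17 cells, and medians of 0.14 and -0.00. E2f8, a repressor of the E2F family that is itself induced in the cell cycle, had signals of 808, 1215, 1999 and 1088, highest in CD30low Th17 and lowest in CD30low Th1 cells. For 38 measured genes of G1/S and DNA replication, 37 were higher in CD30high Th1 cells in the signals as deposited, with a median of 0.27. In Th17 cells 29 were lower and 9 higher, with a median of -0.17. The G1/S genes had a median of 0.62 for Th17 over Th1 among CD30low cells, beside 0.55 for the mitotic genes. Rfc3, a clamp loader subunit, stood apart with signals of 782, 1497.5, 2034 and 6644. Inhibitors of cyclin-dependent kinases and quiescence genes, 17 measured, had medians of 0.04 in Th1 and -0.11 in Th17 cells. Of these, Klf2, a factor of resting T cells, had signals of 3619.9, 2608, 3259.7 and 143, and Btg2, an antiproliferative gene, 4588, 4088, 2510.3 and 1099.6. Both were lowest in CD30high Th17 cells. Cdkn1a, the inhibitor p21, went the other way, with 2928, 4064, 3675 and 7819, as did Tob2, an antiproliferative gene, with 1087, 1567, 2089 and 3998. In CD30high against CD30low Th17 cells, the calls in this list were Cdkn1a higher and Btg2, Klf2 and Foxo1 lower. The 11 measured housekeeping genes had medians between -0.08 and 0.03 in the 4 comparisons, but single genes were not level between the lineages. Among CD30low cells 5 were higher and 6 lower in Th17 than in Th1 cells, and the counts were the same among CD30high cells. Tfrc was past 2-fold higher in both (1.84 and 1.23), while Actb (-0.44 and -0.48) and B2m (-0.50 and -0.70) were lower.

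**Figure D5:**
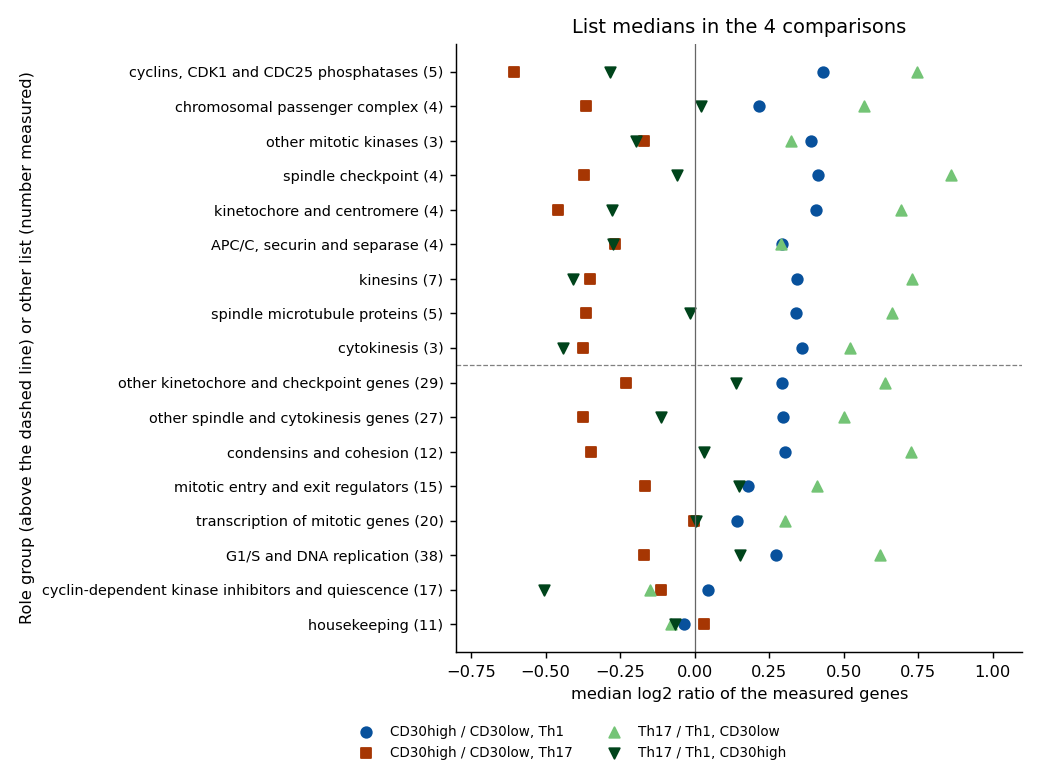
Median log2 ratio (x axis) of each role group of mitosis and spindle genes (above the dashed line, role groups of at least 3 genes) and of the other lists (below it), with the number of measured genes in brackets. Blue circles are CD30high over CD30low in Th1, red-brown squares the same in Th17, light green triangles Th17 over Th1 in CD30low and dark green triangles Th17 over Th1 in CD30high cells. In every role group the circle and the light triangle lie above 0 and the square below it, and with the arrays centred on their medians the median of the dark triangle comparison over all 41 members turns to 0.23.

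Effects common to both pairs of arrays were fitted with limma on 8438 genes, with lineage and CD30 gate as additive terms and 1 residual degree of freedom per gene. For the lineage, no member was called at an adjusted p of 0.05, while 401 genes were (4.75%), and 4 members (Bub1, Cdca8 and Cdk1 higher in Th17, Cdc25b lower) had an unadjusted p under 0.05. The smallest adjusted p of a member in limma's test was 0.116 for Bub1, with a log2 difference of 0.79 ± 0.23 (SE). Cdc25b followed with -0.94 ± 0.29 (SE) and an adjusted p of 0.128 in the same limma fit. For the CD30 gate limma called 0 genes (0.0%), with 866 genes (10.3%) and 1 member, Cdc25b, at an unadjusted p under 0.05. The members' median coefficient was -0.01 for the gate, with 17 above and 24 below 0. With each array centred on its median, limma called 20 members for the lineage (19 higher and 1 lower in Th17 cells) among 2861 genes, and 1 member, Cdc25b, for the gate among 492 genes. An additive fit counts the opposite CD30 ratios of Th1 and Th17 cells as residual error. Its lineage p-values take the CD30low and CD30high arrays of a lineage in the place of repeats. They therefore do not measure the spread between cultures or mice, with or without the centring.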

How the data were processed

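RNA of 4 sorted populations, 1 array each, had been labelled with biotin and hybridized to Affymetrix whole-genome mouse arrays. The deposited intensity values were linear probe set signals. The authors credit them to the GeneChip Operating Software in the methods and to Affymetrix Expression Console in the processing notes. The summary algorithm and scaling target were not given in the sources used here. Near-equal trimmed means (lowest and highest 2% left out) are a mark of scaling to a common target, which hides a change shared by most genes. The table held 45037 probe sets without detection calls. Of these, 34945 had 1 symbol (34741 updated through RefSeq identifiers), 932 had several and 9160 were unnamed.

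Groups came from the sample titles. For each gene the brightest probe set by its mean was used, signals below 100 were set to 100, and a call needed 2-fold and 300 on the brighter array, limits drawn from a figure legend of the study. Single arrays were compared without a test, by counts and medians beside those of all genes. Technical precision was the SD between the 2 brightest probe sets of a gene with means of at least 300. limma was fitted to genes with a mean of at least 200, with a variance trend and Benjamini-Hochberg adjustment at 0.05. The fit was run on simulated data with a lineage change and independent noise on each array. These data held no CD30 difference between the lineages, so that run does not bear on genes with opposite CD30 ratios. Promoters were RefSeq sequences on GRCm38.p6. Values in every array are given for Mki67, for members past 2-fold and for the 2 members of each role group whose CD30 ratios differed most between the lineages. The members and lists were chosen with earlier results of these data known. Alternatives covered the scaling, floor, signal and fold limits, choice of probe set and limma settings. Precision is limited by the number of arrays. limma 3.58.1 ran in R 4.3.3. The remaining steps ran in Python 3.11.15 with pandas 2.3.3 and numpy 2.4.6, and figures were drawn with matplotlib 3.10.9.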

Additional observations from a re-analysis of the deposited data

Results flagged for a closer look

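The CD30 log2 ratio of the mitotic genes differed between the lineages, with a median difference of -0.72 (Th17 minus Th1) over 41 members. It stood out because the members' median ratios had opposite signs in Th1 and Th17 cells. This was not particular to the members. As deposited, the difference was below 0 for 37 of 38 G1/S genes (median -0.43) and 28 of 29 other kinetochore and checkpoint genes (-0.56). It was below 0 for 25 of 27 other spindle genes (-0.68) and 12 of 12 condensin and cohesion genes (-0.73). For housekeeping genes it was below 0 for 5 of 11 (0.10). Cdc25c (-1.20), Ttk (-1.28) and Cenpe (-0.95) stood out because both of their ratios exceeded 2 technical SDs in opposite directions. With 1 array per group these differences were not tested. The second Ttk probe set, at signals between 177 and 240.2, gave ratios of -0.19 in Th1 and -0.36 in Th17 cells, a difference of -0.17. For Cdc25c the second probe set gave 0.70 and -0.16, a difference of -0.86. For Cenpe it gave 0.45 and -0.35, a difference of -0.81. None of these second probe sets was past 2 technical SDs in both lineages.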

How the results depend on the processing

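No fit with a replicate block could be made because each group had 1 array and the labels give no replicate numbers, and limma's additive fit already compared the gates within each lineage. Centring each array on its median signal, which at 62.0 to 86.0 is a background level, moved the all-gene medians to -0.27 (CD30 in Th1), -0.04 (CD30 in Th17), 0.25 (lineage in CD30low) and 0.47 (lineage in CD30high cells). The members' median became 0.11 for CD30 in Th1 cells and turned to 0.23 for the lineage in CD30high cells, where 32 members were then above 1, 10 members were past 2-fold higher for the lineage in CD30low cells, and 8 were higher in Th17 among CD30low and lower among CD30high cells. Relative to the all-gene medians, the members' medians were 0.38, -0.38, 0.54 and -0.24 in the same order, against 0.37, -0.38, 0.55 and -0.22 as deposited. In limma the same centring called 20 members (19 higher in Th17, 1 lower) and 2861 genes for the lineage, and 1 member and 492 genes for CD30. Quantile normalization called 759 genes for the lineage and no variance trend 150, and no member in either.

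With the mean of a gene's probe sets, 1 member was above 1 for CD30 in Th17 cells, 1 was past 2-fold for the lineage in CD30low cells and 7 were above 1 for the lineage in CD30high cells. With the second brightest probe set, which 27 members have, 23 were above 1 for CD30 in Th1 and 1 in Th17 cells. Then 1 was past 2-fold for the lineage in CD30low cells, and 6 were above 1 and 0 past 2-fold lower in CD30high cells, and 27 had a CD30 difference below 0. There 22 were higher in CD30high Th1 and lower in CD30high Th17 cells. Ttk turned to -0.081 for the lineage in CD30low cells with it. At 1.5-fold the counts were 6 higher for CD30 in Th1, 6 lower for CD30 in Th17, 20 higher for the lineage in CD30low and 3 lower in CD30high cells. Without Cdc25b, and with centring on genes at 300 or more on all 4 arrays, both chosen after seeing the data, the former left 0 members past 2-fold in CD30 in Th17 and 0 in the lineage in CD30high cells, and the latter moved none of the counts or medians beyond its limit. Of all summary values and alternatives, 181 kept their direction and size, 26 moved and 1 turned. Of the single-gene values, 1386 were kept, 178 moved and 1 turned. Where a value moved, the cause was not tested.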
